A study of Mus musculus with 16 samples.

Results

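The proteasome subunit genes were taken as every gene on the array whose symbol is Psma, Psmb, Psmc, Psmd, Psme, Psmf or Psmg followed by a digit, without the immunoproteasome subunits Psmb8, Psmb9 and Psmb10. The platform annotation held 40 such genes, and 38 of them had a probe above background (detection p under 0.05 on at least 4 of the 16 arrays), out of 8725 genes measured. All 38 were above background on 16 of 16 arrays, so no measured gene entered through a single group. The probes of Psma1 and Psma6, both subunits of the alpha ring, were above background on 0 arrays, and these genes were not measured. Psma8, Psmb11, Psmd3, Psmf1 and Psmg4 have no probe in the annotation used and were not analysed here. Where a gene had several probes, the one with the highest mean was used, and probe brightness was not compared between genes.

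The proteasome is the barrel-shaped protease that degrades ubiquitin-tagged proteins in the cytosol and nucleus. Its 20S core is built of outer rings of alpha subunits, which gate the entrance, and inner rings of beta subunits, of which Psmb5, Psmb6 and Psmb7 carry the active sites. The 19S cap binds ubiquitin chains, removes them and unfolds the substrate with a ring of ATPases, while activators of the Psme family can take the place of the cap, and dedicated chaperones put core and cap together. In skeletal muscle the system removes sarcomere proteins during atrophy, and in many cell types the transcription factor Nfe2l1 (NRF1) raises the transcription of subunit genes when proteasome activity is low. Interferons change the composition of the complex: they induce the immunoproteasome subunits and the PA28 activator subunits Psme1 and Psme2.

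Quadriceps muscle of adult mice on the FVB/n background was profiled in 4 groups of 4 arrays. Wild-type (WT) mice received saline, and HSALR transgenic mice received saline, the antisense oligonucleotide ASO 445236 or the antisense oligonucleotide ASO 190401, all by subcutaneous injection biweekly for 4 weeks. HSALR mice express a human skeletal actin transgene carrying a long CUG repeat and are used as a model of myotonic dystrophy. The repeat is expressed from the actin transgene in skeletal muscle, so other tissues affected in the disease are not modelled. Every treated mouse carried the transgene, and no wild-type group received an oligonucleotide. The labels do not say whether each array is a separate animal, so the p-values measure the spread between arrays.

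The arrays were 2 chips of 8, with HSALR saline and ASO 445236 on one and WT saline and ASO 190401 on the other. The comparisons of ASO 445236 with saline and of ASO 190401 with WT therefore lay within a chip, whereas in the other 4 comparisons chip and group cannot be told apart. Between 10835 and 11700 probes were above background per array, and arrays of a group correlated at 0.977 to 0.991. Raw brightness varied between groups: the 75th percentile of the deposited intensities was 139 ± 11.9 in WT, 112 ± 7.63 in HSALR saline, 146 ± 8.91 with ASO 445236 and 163 ± 22.9 with ASO 190401 (mean ± SD of 4 arrays). Intensities were background-corrected, quantile-normalised and put on the log2 scale, and a gene was called changed when its Benjamini-Hochberg adjusted p in the limma fit over all 8725 genes was under 0.05. All 10 markers of skeletal muscle were measured, with a summed normalised intensity of 273542 to 306235 per array, and none of the lymphocyte markers with a probe (Cd3e, Cd3g, Cd3d, Cd79a, Cd79b, Ms4a1, Cd4, Cd8a and Nkg7) was.

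On the quantile-normalised scale few of the proteasome genes changed, and those that did were single members of several subcomplexes rather than whole rings. In HSALR saline against WT saline 1 of 38 was called higher (Psmd4) and 3 lower (Psmb5, Psmb7 and Psme1), 10.5% of the genes, against 27.2% of all genes tested (14.1% higher and 13.1% lower). With arrays scaled instead to the median of the genes tested, an alternative chosen after seeing the data, this count was 12 (10 higher and 2 lower), 31.6% against 26.8% of all genes. Under ASO 445236 against saline 2 were higher (Psmc6 and Psme1) and 1 lower (Psmd4), 7.89% against 13.6% of all genes (6.82% higher, 6.75% lower). Under ASO 190401 against saline 5 were higher (Psmb5, Psmb7, Psmc6, Psmd1 and Psme1) and 1 lower (Psmd4), 15.8% against 15.8% of all genes (8.08% higher, 7.69% lower). In this last comparison the share of proteasome genes called was thus no more than that of all genes. The 2 oligonucleotide comparisons and the comparison with WT share the 4 HSALR saline arrays.

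The median difference of the 38 genes was close to that of all genes. On the log2 scale it was 0.028 in HSALR saline minus WT, against -0.017 over all genes. Under ASO 445236 minus saline it was 0.014 against 0.0095, and under ASO 190401 minus saline 0.035 against 0.017. The typical size of a difference, without its sign, was also small, with a median of 0.11 in HSALR saline minus WT against 0.22 over all genes, and of 0.094 and 0.077 under the oligonucleotides against 0.17 and 0.18. These probes were measured more tightly than most, with a median standard error of 0.092 (0.055 to 0.23) against 0.15 over all genes. The 95% confidence interval stayed within 1.5-fold in either direction for 30 of the 34 genes not called in HSALR saline against WT, for 31 of 35 under ASO 445236 and for 28 of 32 under ASO 190401. The wider intervals among genes not called included those of Psmb1, Psmd2 and Psmd8. Where an interval reached beyond 1.5-fold, a change of that size was not excluded with 4 arrays a group.

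**Figure D1:**
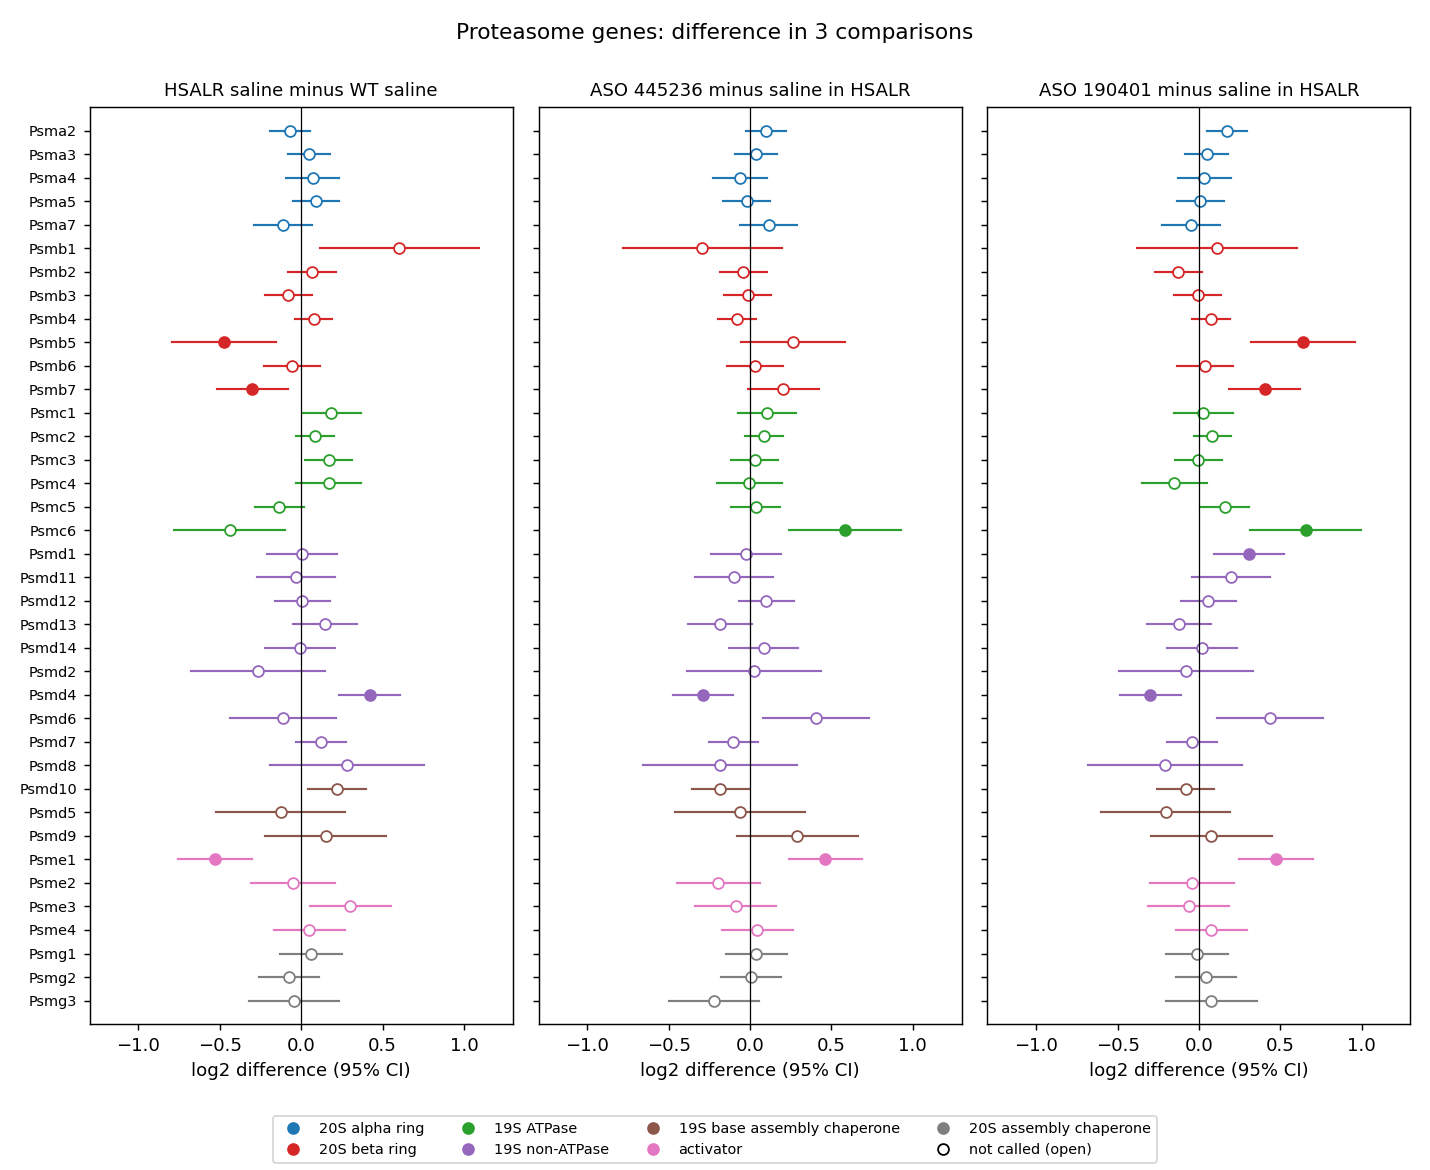
Difference in normalised log2 intensity (x axis, with the 95% confidence interval of the limma fit) of each of the 38 proteasome genes (y axis, ordered and coloured by subcomplex) in 3 comparisons that share the HSALR saline arrays. Filled points are genes with an adjusted p under 0.05, and the called genes are Psmb5, Psmb7, Psmd4 and Psme1 on the left, Psmc6, Psmd4 and Psme1 in the middle and Psmb5, Psmb7, Psmc6, Psmd1, Psmd4 and Psme1 on the right.

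The scale on which the arrays were made equal mattered for the direction of the family as a whole. With the arrays scaled to a common median in place of quantile normalisation, the median of all genes rose by 0.16 under ASO 445236 and 0.18 under ASO 190401 against saline, and that of the proteasome genes moved with it, to 0.19 and 0.22. Relative to all genes the shift of the proteasome genes was 0.026 and 0.041 on that scale. The counts moved as well: on the common-median scale 8 of 38 genes were called under ASO 445236 (21.1% against 20.5% of all genes) and 12 under ASO 190401 (31.6% against 25.7%), all higher than under saline. No direction is therefore given for the family, and the genes are described one by one below, with calls on the quantile-normalised scale unless another is named.

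In the alpha ring, whose subunits form the gate of the core, none of the 5 measured genes (Psma2, Psma3, Psma4, Psma5 and Psma7) was called in any of the 6 comparisons among the groups. Their differences ran from -0.11 (Psma7) to 0.091 (Psma5) in HSALR saline minus WT, from -0.062 (Psma4) to 0.11 (Psma7) under ASO 445236 minus saline and from -0.050 (Psma7) to 0.17 (Psma2) under ASO 190401 minus saline. For Psma2, the 4 ASO 190401 arrays lay above the 4 saline arrays, with an adjusted p of 0.0562. The largest standard error in the alpha ring was 0.084.

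Of the 7 genes of the beta ring, each read from its brightest probe, the catalytic subunits Psmb5 and Psmb7 were called and the remaining subunits were not. The group means of Psmb5, Psmb6 and Psmb7 were lowest in HSALR saline, with a span of only 0.055 for Psmb6. Psmb5 encodes the chymotrypsin-like active site, the main target of the drug bortezomib. Its normalised log2 intensities on the 4 arrays of each group were 8.42, 8.85, 8.63 and 8.68 in WT, 8.53, 8.14, 7.86 and 8.15 in HSALR saline, 8.91, 8.37, 8.25 and 8.21 under ASO 445236, and 8.83, 8.90, 8.65 and 8.86 under ASO 190401. Of the HSALR saline arrays 3 lay below every WT array and the first lay among them, while every ASO 190401 array lay above every saline array. Psmb5 was 1.39-fold lower in HSALR saline than in WT (log2 difference -0.48, SE 0.15, adjusted p = 0.0268) and 1.56-fold higher under ASO 190401 than under saline (0.64, SE 0.15, adjusted p = 0.00805). Under ASO 445236 the difference from saline was 0.26 (95% interval -0.06 to 0.58, adjusted p = 0.294), with the first array of that group well above its other three. The call against WT did not hold without HSALR saline array 2, 3 or 4 or WT array 2 or 4, where the adjusted p was 0.056 to 0.0994, and the call under ASO 190401 held without any single array.

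The promoter of Psmb5 is shown because NRF1 and its relative NRF2 act on subunit genes through antioxidant response elements. The RefSeq window runs from 250 bases before to 50 bases after the gene's start, on the GRCm38.p6 reference, which comes from C57BL/6J and not from FVB/n mice. It lies at chr14:54617946-54618245 on the minus strand and is printed 5′ to 3′, with a match to the element's core TGACNNNGC in capitals.
Psmb5: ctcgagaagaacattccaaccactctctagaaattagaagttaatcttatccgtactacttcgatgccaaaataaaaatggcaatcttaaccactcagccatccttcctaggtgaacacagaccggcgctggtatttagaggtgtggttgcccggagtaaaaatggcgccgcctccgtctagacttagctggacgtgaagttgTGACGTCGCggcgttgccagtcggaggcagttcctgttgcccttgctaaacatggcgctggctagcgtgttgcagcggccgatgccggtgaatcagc
The match begins at position -47 from the annotated start. TGACNNNGC was found on either strand in the windows of 6 of the 32 measured genes that have one (Psmb5, Psmb6, Psmc6, Psmd12, Psmd9 and Psme4) and in 12.4% of all 32851 promoter windows. The looser core TGANNNNGC was in 18 of 32 and in 41.3% of all windows. Psmb6, Psmd12, Psmd9 and Psme4, which also hold the core, were not called in any comparison.

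Psmb7 encodes the trypsin-like active site. The brightest of its 3 probes read 13.28, 13.13, 13.20 and 13.10 in WT, 12.88, 13.03, 12.65 and 12.95 in HSALR saline, 12.86, 13.21, 13.03 and 13.23 under ASO 445236, and 13.08, 13.42, 13.14 and 13.50 under ASO 190401. The HSALR saline arrays lay below all WT and all ASO 190401 arrays and overlapped with ASO 445236. The difference was -0.30 against WT (SE 0.10, adjusted p = 0.0383), 0.20 under ASO 445236 (adjusted p = 0.218) and 0.40 under ASO 190401 (adjusted p = 0.0126). The other 2 probes of Psmb7 did not follow it: their differences were 0.038 and -0.020 in HSALR saline minus WT and -0.048 and 0.0075 under ASO 190401 minus saline, with adjusted p from 0.70 to 0.97. With the 3 probes averaged the differences fell to -0.094 (adjusted p = 0.314) and 0.12 (adjusted p = 0.241), so both Psmb7 calls rest on the brightest probe. The call against WT also did not hold without any 1 of HSALR saline arrays 1, 3 and 4 or WT arrays 1, 2 and 3 (adjusted p 0.0513 to 0.139), and that under ASO 190401 did not hold without saline array 3 or ASO 190401 array 4 (0.0508 and 0.052). Scaling to a common median (0.0501) or to the median of the genes tested (0.122) ended the call against WT. So did omitting the detection filter (0.0574) or the intensity trend (0.0743) and adding chip position to the model (0.0743).

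Psmb6, the caspase-like active site, had the smallest span of group means of all 38 genes. Its spread between arrays of a group was not the smallest, with a pooled SD of 0.118 against 0.056 for Psmc2. For Psmb6 the following values were found. Its group means were 12.49 ± 0.067 in WT, 12.43 ± 0.17 in HSALR saline, 12.46 ± 0.10 with ASO 445236 and 12.47 ± 0.11 with ASO 190401 (SD, n = 4), a span of 0.055. Its differences in the first 3 comparisons were -0.055, 0.029 and 0.035 (SE 0.082), and their 95% intervals lay between -0.23 and 0.21. Among the structural beta subunits, Psmb1 had the widest span of group means (0.72) and also the largest standard error (0.23). WT array 2 read 10.42 for Psmb1 where the other WT arrays read 11.68, 11.19 and 11.60, and the ASO 445236 arrays ran from 10.92 to 12.17. Its difference of 0.60 in HSALR saline minus WT was not called (adjusted p = 0.0627). Psmb2 had a second, dimmer probe that differed from the brightest: it was lower in HSALR saline than in WT by -0.28 (adjusted p = 0.0355 in a fit over all 12364 probes), where the brightest probe differed by 0.065. The dimmer probe was also lower than in WT under ASO 445236 (-0.39, adjusted p = 0.0119) and ASO 190401 (-0.33, adjusted p = 0.0340), where the brightest differed by 0.024 and -0.062.

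**Figure D2:**
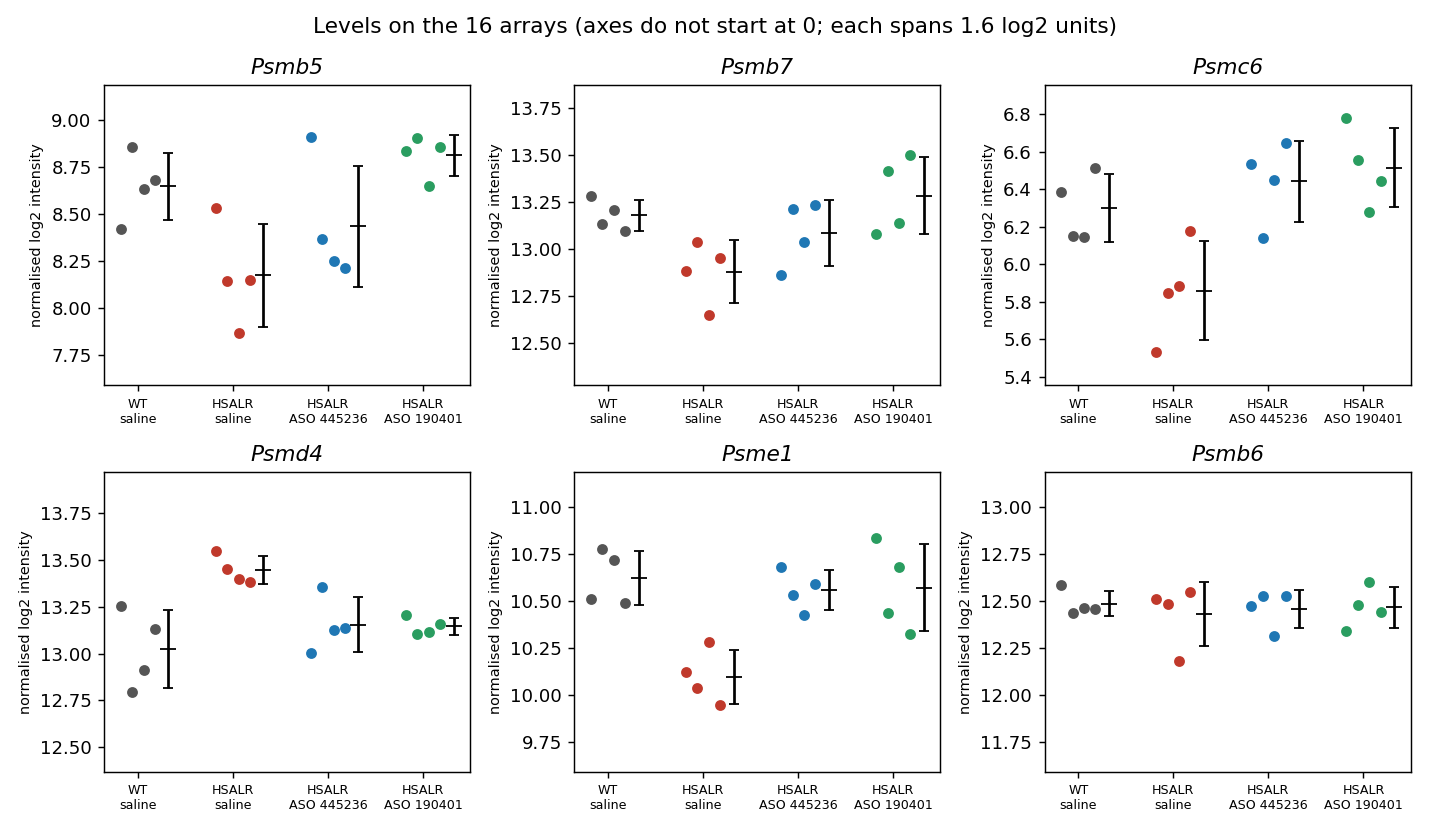
Normalised log2 intensity (y axes, each spanning the same log2 range and not starting at 0) of Psmb5, Psmb7, Psmc6, Psmd4, Psme1 and, as the gene with the smallest span of group means, Psmb6 on each array of the 4 groups, with the group mean and SD (n = 4) as the line and bar beside the points. The HSALR saline points of Psme1 lie below and those of Psmd4 above all points of the other groups, whereas the 4 groups of Psmb6 span 0.055 in their means.

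The 6 ATPases of the 19S cap unfold substrates and open the gate of the core. None was called in HSALR saline against WT, where their differences ran from -0.44 (Psmc6) to 0.19 (Psmc1). Psmc6 (Rpt4) was the member that moved under the oligonucleotides: its arrays read 6.38, 6.15, 6.15 and 6.51 in WT, 5.53, 5.85, 5.88 and 6.17 in HSALR saline, 6.53, 6.14, 6.45 and 6.65 under ASO 445236, and 6.78, 6.56, 6.28 and 6.44 under ASO 190401. Every ASO 190401 array lay above every saline array, and ASO 445236 array 2 lay just below the highest saline array. Psmc6 was higher than under saline by 0.58 under ASO 445236 (SE 0.16, adjusted p = 0.0228) and by 1.57-fold under ASO 190401 (0.66, SE 0.16, adjusted p = 0.0105), and it differed by -0.44 in HSALR saline minus WT (adjusted p = 0.0527). Its probe was dim, with deposited intensities of 26.3 to 106.8. The ASO 445236 call did not hold without array 1 or 4 of that group or saline array 1 or 2 (adjusted p 0.0514 to 0.0789), while the ASO 190401 call held without any single array.

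The Psmc6 promoter window, shown for comparison with that of Psmb5, lies at chr14:45329574-45329873 on the plus strand, and the same core is in capitals as it reads on the opposite strand.
Psmc6: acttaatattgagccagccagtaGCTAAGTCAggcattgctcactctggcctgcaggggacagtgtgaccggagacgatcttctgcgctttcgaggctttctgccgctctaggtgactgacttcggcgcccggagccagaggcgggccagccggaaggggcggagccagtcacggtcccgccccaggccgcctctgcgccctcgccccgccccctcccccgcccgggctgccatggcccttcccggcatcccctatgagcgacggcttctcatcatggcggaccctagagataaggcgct
The match begins at position -227, far from that in Psmb5. Psmc6 also holds the GC box GGGCGG, which was in 20 of the 32 windows and in 35.7% of all windows.

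Psmc1 (Rpt2), whose tail inserts into the alpha ring to open the gate, was the single proteasome gene called in either comparison of a treated group with WT when each gene was read from its brightest probe and the arrays were quantile-normalised. It was 1.22-fold higher under ASO 445236 than in WT (0.29, SE 0.086, adjusted p = 0.0368), against 11.3% of all genes called in that comparison (6.29% higher, 5.05% lower). On the common-median scale 13 of 38 were called there, all higher, 34.2% against 18.6% of all genes. The WT arrays read 10.68, 10.56, 10.47 and 10.65 and the ASO 445236 arrays 10.66, 10.83, 11.01 and 11.01, so the groups met at 1 array. The call did not hold without ASO 445236 array 2, 3 or 4 or WT array 2, 3 or 4, where the adjusted p was 0.0502 to 0.122. The ATPases Psmc2 and Psmc3 differed from WT by 0.17 and 0.20 under ASO 445236 (adjusted p = 0.0509 and 0.0704). Under ASO 190401 they differed from WT by 0.17 and 0.16 (0.0597 and 0.142). In each of these 4 differences all treated arrays lay above all WT arrays. Psmc4 and Psmc5 differed from WT by 0.17 and -0.10 under ASO 445236 and were not called in any comparison.

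Among the 10 measured non-ATPase subunits of the cap, Psmd4 and Psmd1 were called. Psmd4 (Rpn10) is one of the receptors that catch ubiquitin chains. Its arrays read 13.25, 12.79, 12.91 and 13.13 in WT, 13.55, 13.45, 13.40 and 13.38 in HSALR saline, 13.00, 13.35, 13.13 and 13.14 under ASO 445236, and 13.20, 13.10, 13.11 and 13.16 under ASO 190401. The 4 HSALR saline arrays were above all 12 others. Psmd4 was 1.34-fold higher in HSALR saline than in WT (0.42, SE 0.089, adjusted p = 0.00161), a call that held without any single array. It was lower under ASO 445236 (-0.29, SE 0.089, adjusted p = 0.0371) and under ASO 190401 (-0.30, adjusted p = 0.0284) than under saline, and its differences from WT under the oligonucleotides were 0.13 and 0.12.

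The decreases of Psmd4 under treatment depended on the scale and on single arrays. They did not pass when arrays were scaled to a common median (-0.16 and -0.15, adjusted p = 0.164 and 0.188), a scale on which the median of all genes itself rose. With arrays scaled to the median of the genes tested they were -0.36 and -0.37 (adjusted p = 0.00513 and 0.00421). In the deposited intensities, before any normalisation, the saline arrays read 8963.8 to 10346, the ASO 445236 arrays 9368.8 to 9708.6 and the ASO 190401 arrays 9083.8 to 11445.3, so the groups overlapped on that scale. Without any 1 of ASO 445236 arrays 1, 3 and 4 or the 4 saline arrays the first call was lost (adjusted p 0.0551 to 0.112), and without saline array 1 or 2 or ASO 190401 array 2, 3 or 4 the second was lost (0.056 to 0.08). Both calls were lost without the intensity trend (0.0809 and 0.066). The ASO 445236 call was also lost without the detection filter (0.0606) and with chip position in the model (0.0663).

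The Psmd4 promoter window lies at chr3:95042565-95042864 on the minus strand. It is shown with that of Psme1 below because both hold the paired motif of interferon regulatory factors, GAAA followed after any 2 bases by GAAA, in capitals as it reads on the opposite strand, although the genes moved in opposite directions.
Psmd4: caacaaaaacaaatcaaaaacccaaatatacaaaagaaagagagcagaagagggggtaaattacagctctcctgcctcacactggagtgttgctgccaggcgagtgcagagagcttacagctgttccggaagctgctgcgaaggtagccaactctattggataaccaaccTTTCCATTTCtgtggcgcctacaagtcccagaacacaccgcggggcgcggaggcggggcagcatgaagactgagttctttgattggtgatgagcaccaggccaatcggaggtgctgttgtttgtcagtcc
The match begins at position -80.

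Psmd1 (Rpn2), a scaffold of the base of the cap, was 1.24-fold higher under ASO 190401 than under saline (0.31, SE 0.10, adjusted p = 0.0488), with values of 9.32, 9.35, 9.47 and 9.22 against 9.16, 8.99, 9.08 and 8.89. It read 8.96, 8.94, 8.96 and 9.18 under ASO 445236 and 8.84, 9.28, 8.90 and 9.08 in WT. This call lay at the threshold and was lost when any 1 of 12 arrays was left out, arrays of the groups not compared included, with the adjusted p between 0.0501 and 0.143. The arrays whose omission ended it were saline 2, 3 and 4, all 4 of ASO 190401, ASO 445236 1, 2 and 3, and WT 3 and 4. Psmd6 (Rpn7) was not called, but both of its probes differed the same way under the oligonucleotides. Its brightest probe differed from saline by 0.41 (adjusted p = 0.0926) and 0.44 (adjusted p = 0.064), with all treated arrays above all saline arrays, and its second by 0.35 and 0.58. The remaining non-ATPase subunits, among them Psmd14 (Rpn11), the deubiquitinase of the cap, and Psmd2 (Rpn1), were not called in any comparison. Psmd14 differed by -0.0075 in HSALR saline minus WT, 0.083 under ASO 445236 and 0.018 under ASO 190401.

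The chaperones that assemble the base of the cap, Psmd5, Psmd9 and Psmd10 (gankyrin), and those that assemble the core were not called in any of the 6 comparisons. The brightest probe of Psmd10 differed by 0.22 in HSALR saline minus WT (adjusted p = 0.0602) and by -0.18 and -0.082 under the oligonucleotides. Its other probes did not follow it: they differed by -0.081 and -0.030 in HSALR saline minus WT. Under ASO 445236 minus saline they differed by 0.026 and -0.013, and under ASO 190401 by 0.20 and -0.036. Psmd9 differed by 0.44 under ASO 445236 minus WT (adjusted p = 0.118), where its second, dimmer probe differed by -0.0009. Psmg1 and Psmg2, which pair to seat the alpha subunits, differed by 0.059 and -0.074 in HSALR saline minus WT, by 0.038 and 0.0045 under ASO 445236 and by -0.013 and 0.042 under ASO 190401, with 95% intervals between -0.26 and 0.25. Psmg3, the third core chaperone measured, differed by -0.043, -0.22 and 0.076.

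The activators of the Psme family gave the clearest single-gene result. Psme1 encodes PA28α, which forms a cap with PA28β, the product of Psme2, and together they favour the release of peptides used in antigen presentation. The brighter of 2 Psme1 probes read 10.51, 10.77, 10.72 and 10.49 in WT, 10.12, 10.03, 10.28 and 9.94 in HSALR saline, 10.68, 10.53, 10.43 and 10.59 under ASO 445236, and 10.84, 10.43, 10.68 and 10.33 under ASO 190401. All 4 HSALR saline arrays lay below all 12 others, and the 3 other groups overlapped one another. Psme1 was 1.44-fold lower in HSALR saline than in WT (-0.53, SE 0.11, adjusted p = 0.00123). It was 1.38-fold higher under ASO 445236 (0.46, SE 0.11, adjusted p = 0.00698), within a chip, and 1.39-fold higher under ASO 190401 (0.47, SE 0.11, adjusted p = 0.00565) than under saline. Against WT the treated groups differed by -0.065 (95% interval -0.29 to 0.16) and -0.054 (-0.28 to 0.17), the latter within a chip.

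The 3 Psme1 calls held on the other scales tried. With arrays scaled to a common median the differences were -0.51 in HSALR saline minus WT, 0.66 under ASO 445236 and 0.71 under ASO 190401 (adjusted p = 0.00807, 0.00145 and 0.000719), and with arrays scaled to the median of the genes tested they were -0.46, 0.46 and 0.49 (0.00466, 0.0079 and 0.00506). In the deposited intensities the HSALR saline arrays read 777 to 975.3, against 1254.9 to 1705.2 in WT, 1379 to 1860.8 under ASO 445236 and 1265.3 to 2209 under ASO 190401, but the HSALR saline arrays were also the dimmest as a whole, so this scale does not separate the gene from the array. The second Psme1 probe differed by -0.46 in HSALR saline minus WT (adjusted p = 0.00542), by 0.31 under ASO 445236 (0.0864) and by 0.46 under ASO 190401 (0.0113). Psme2 did not move with Psme1: its differences were -0.051, -0.20 and -0.044, none called, with 95% intervals of -0.31 to 0.21, -0.45 to 0.06 and -0.30 to 0.21. The mouse genome holds a second, closely related gene, Psme2b, which the Psme2 probe may not tell apart. Psme3, the nuclear activator PA28γ, differed by 0.30 in HSALR saline minus WT (adjusted p = 0.0683, all saline arrays above all WT arrays) and by -0.089 and -0.064 under the oligonucleotides. Psme4 (PA200), the large single-chain activator, differed by 0.049, 0.043 and 0.076.

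The Psme1 window lies at chr14:55578244-55578543 on the plus strand, with the paired motif in capitals as it reads on the opposite strand.
Psme1: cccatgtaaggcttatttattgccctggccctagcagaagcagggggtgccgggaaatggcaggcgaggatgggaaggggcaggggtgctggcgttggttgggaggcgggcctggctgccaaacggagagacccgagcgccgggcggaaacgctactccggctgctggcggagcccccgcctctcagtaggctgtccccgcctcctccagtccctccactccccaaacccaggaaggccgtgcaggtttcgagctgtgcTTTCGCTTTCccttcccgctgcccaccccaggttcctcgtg
The match begins at position 10, just after the annotated start. The paired GAAA was in 4 of the 32 windows (Psmb3, Psmd4, Psmd9 and Psme1) and in 3.44% of all windows. The longer interferon-stimulated response element, AGTTTC followed after any 2 bases by TTTC, was in 0 of 32 and in 0.271% of all windows. The palindromes bound by STAT factors, TTC and GAA separated by any 3 or any 4 bases, were in 2 and 0 of 32 windows, against 8.3% and 6.95% of all windows. The CCAAT box was in 10 of 32 against 37.4% of all windows, and the E-box CACGTG in 3 of 32 against 7.15%. All 9 motifs were searched on both strands, TGACNNNGC lies within TGANNNNGC and the longer interferon element contains the reverse complement of the paired GAAA, and a match describes the letters only.

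Genes of the interferon response moved in the same comparisons as Psme1. Of 11 measured, 7 were lower in HSALR saline than in WT, 6 were higher under ASO 445236 and 7 higher under ASO 190401 than under saline, with medians of -0.84, 0.93 and 0.74 on the log2 scale. Over all genes 27.2%, 13.6% and 15.8% were called in these comparisons, in either direction. Their summed intensity per array ran from 2614 to 4900.4 in WT, 1213 to 1751 in HSALR saline, 3518 to 5154 under ASO 445236 and 2223 to 3269.6 under ASO 190401. The largest called differences in HSALR saline minus WT were those of Ifi27l2a (-1.60), Usp18 (-1.22), Gbp3 (-0.93) and Isg15 (-0.91). Isg15 was dim, at 4.71 to 5.71 on the HSALR saline arrays. The probe of Psma6, above background on 0 arrays, had a mean of 4.71, so the size of the Isg15 difference is uncertain. Against saline, Ifi27l2a was higher by 1.78 under ASO 445236, and Oasl2, Usp18 and Ifit3 were higher by 1.46, 1.27 and 0.96 under ASO 445236 and by 1.65, 1.46 and 1.32 under ASO 190401. Of the immunoproteasome list, 2 of 5 measured genes were lower in HSALR saline than in WT: Psmb9 (-0.68, adjusted p = 0.0121) and Tapbp (-0.54, adjusted p = 0.0145), which helps load peptides on class I molecules. Psmb10 and Psmb8 differed there by -0.28 and -0.20, and Psmb8 was also dim, at 5.03 to 5.87 over the 16 arrays. Under the oligonucleotides 0 of the 5 measured genes of that list were called, with the smallest p for Tapbp (-0.31, adjusted p = 0.208) and Psmb9 (0.32, adjusted p = 0.305) under ASO 445236 and for Tapbp (0.33, adjusted p = 0.168) and Psmb8 (0.18, adjusted p = 0.562) under ASO 190401. The summed immunoproteasome intensity was 865 to 1198 in WT, 725 to 829 in HSALR saline, 722 to 1005 under ASO 445236 and 755 to 907 under ASO 190401.

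Markers of other cells moved too, and in bulk muscle fewer cells of a type and less RNA per cell cannot be told apart. The share of all genes called was 27.2% in HSALR saline against WT, 13.6% under ASO 445236 and 15.8% under ASO 190401 against saline. Of the 10 skeletal muscle markers 2 were higher and 1 lower in HSALR saline than in WT. Against saline 1 of them was higher and 2 lower under each oligonucleotide. Of 9 myeloid markers measured, 0 were called in HSALR saline against WT, 6 were higher under ASO 445236 than under saline (Adgre1 by 1.99, Lyz2 by 1.93) and 0 were called under ASO 190401. Their summed intensity was 1265 to 2719.6 in WT, 830.2 to 1689.9 in HSALR saline, 2348 to 3764 under ASO 445236 and 1136 to 1786 under ASO 190401. The myeloid markers Itgam, Itgb2 and Fcer1g were not above background. Fibroblast markers were lower in HSALR saline than in WT in 5 of 7 and adipocyte markers in 3 of 3. The summed fibroblast intensity was 19969.9 to 22269.5 in WT, 12599 to 14224 in HSALR saline, 15421 to 18759 under ASO 445236 and 13159 to 14630 under ASO 190401, and the adipocyte sum was 876 to 2832, 386 to 1005, 999.8 to 3358 and 454 to 1147 in the same order. Under ASO 445236 against saline 3 of 7 fibroblast and 3 of 3 adipocyte markers were higher, and under ASO 190401 2 of 7 fibroblast and 0 of 3 adipocyte markers were called, the former lower. Of the 2 measured Schwann cell and nerve markers, Pmp22 was lower in HSALR saline than in WT (-0.90, adjusted p = 2.97e-05), and their sum was 1286 to 2094 in WT, 785 to 907 in HSALR saline, 922 to 1166 under ASO 445236 and 673 to 1036 under ASO 190401. Of 8 endothelial markers 2 were lower in HSALR saline than in WT, 1 was lower under ASO 445236 than under saline and 0 were called under ASO 190401, with sums of 3397 to 5345, 3677 to 4681, 2152 to 4456 and 2502 to 3763 in the same order of groups. None of 3 erythroid markers was called in these comparisons, and their sum was 8049 to 44700 in WT, 10876 to 31954 in HSALR saline, 5532 to 39334 under ASO 445236 and 5959 to 10244 under ASO 190401. Of 7 slow-fibre genes 1 was lower in HSALR saline than in WT and 0 were called under the oligonucleotides, with sums of 14516 to 79140, 5596 to 36774, 18299 to 33356 and 8498 to 52102. The part of these cell types in the Psme1 difference was not tested.

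**Figure D3:**
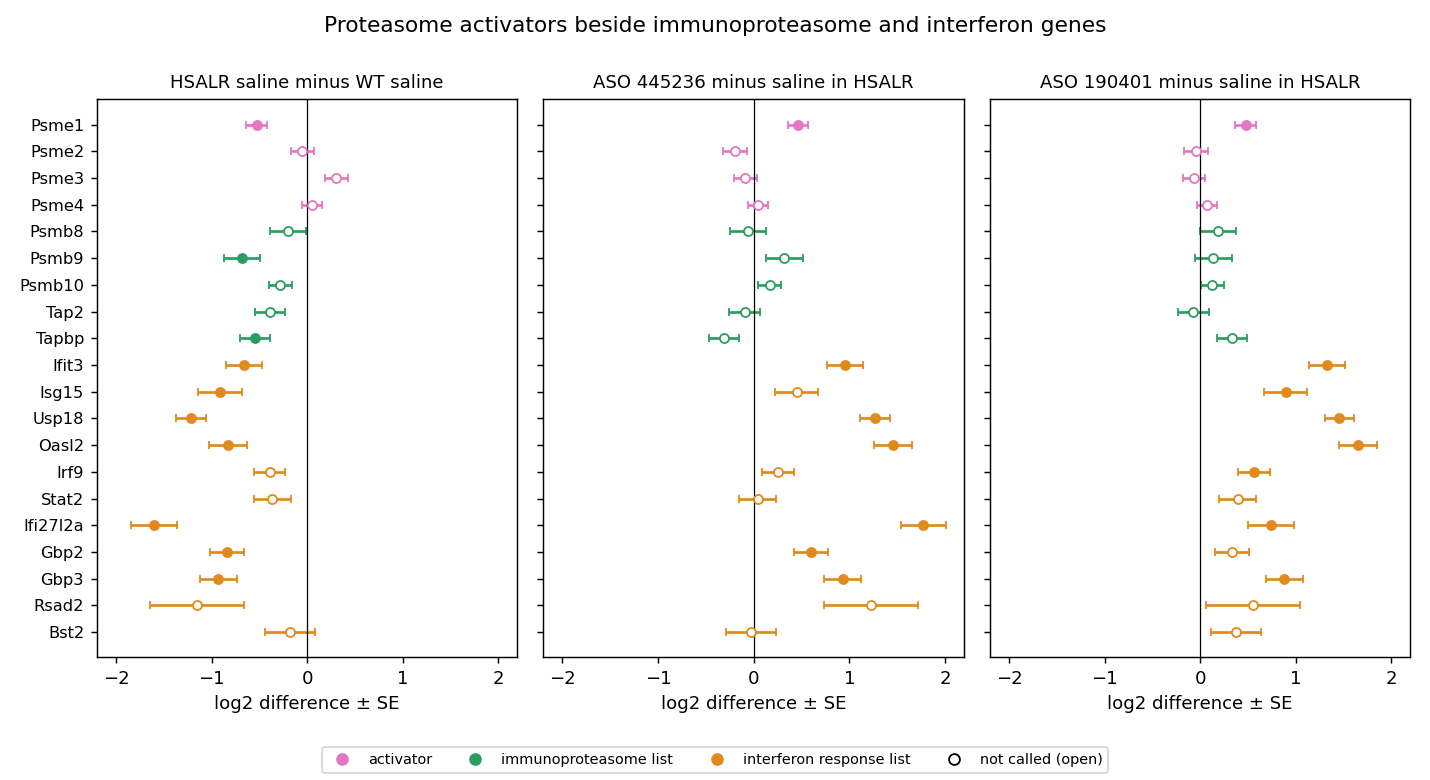
Difference in normalised log2 intensity with its standard error (x axis) of the 4 activator genes and of the immunoproteasome and interferon response lists (y axis) in the 3 comparisons that share the HSALR saline arrays. Filled points have an adjusted p under 0.05, and Psme1 and most interferon genes lie below 0 on the left and above 0 in the other panels while no Psme2 point is filled.

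Between the 2 oligonucleotide groups 0 of the 38 genes were called, against 3.05% of all genes (1.96% higher and 1.09% lower under ASO 445236). Of the 38, 5 had an unadjusted limma p under 0.05, all lower under ASO 445236. The share of all genes under that unadjusted limit was not counted, so the 5 cannot be set against a background. The smallest p belonged to Psmd1 (-0.33, adjusted p = 0.0972) and Psmb4 (-0.15, adjusted p = 0.15), a structural beta subunit. The 95% interval of this difference stayed within 1.5-fold in either direction for 35 of 38 genes. This comparison crossed the chips. Under ASO 190401 against WT, within a chip, 0 of 38 genes were called against 10.4% of all genes (5.09% higher, 5.28% lower). Here 7 had an unadjusted limma p under 0.05, all higher, again with no such count over all genes. The count of called genes depended on the scale: it was 21, all higher, with arrays scaled to a common median (55.3% against 24% of all genes) and 4 with arrays scaled to the median of the genes tested (10.5% against 13.6%). The smallest p belonged to Psmd1 (0.32, adjusted p = 0.0574) and Psmb1 (0.72, SE 0.23, adjusted p = 0.0579), for which the 4 ASO 190401 arrays (11.91, 11.89, 11.97 and 11.97) lay above all WT arrays. Leaving out ASO 445236 array 1 or 4 or WT array 1, 2 or 4 gave 1 or 2 calls in this comparison, and array 1 of ASO 445236 gave 1 in the comparison between the oligonucleotides.

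On the quantile-normalised scale, ASO 190401 muscle was the group in which the 38 genes were most often highest. Of the 38 genes, 15 had their highest group mean there and 4 their lowest, and 17 had their lowest mean in WT and 7 their highest. The same counts were not made over all genes or on the other scales, so they give no direction particular to the family. The mean of the 38 genes after centring each gene over the 16 arrays was -0.032 ± 0.016 in WT, -0.021 ± 0.012 in HSALR saline, 0.0025 ± 0.040 with ASO 445236 and 0.050 ± 0.042 with ASO 190401 (log2, SD, n = 4). ASO 190401 array 1 had the highest value (0.11) and the lowest of that group (0.017) overlapped with ASO 445236, whose arrays ran from -0.032 to 0.060. These shifts correspond to a few percent of intensity and are given as a description.

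**Figure D4:**
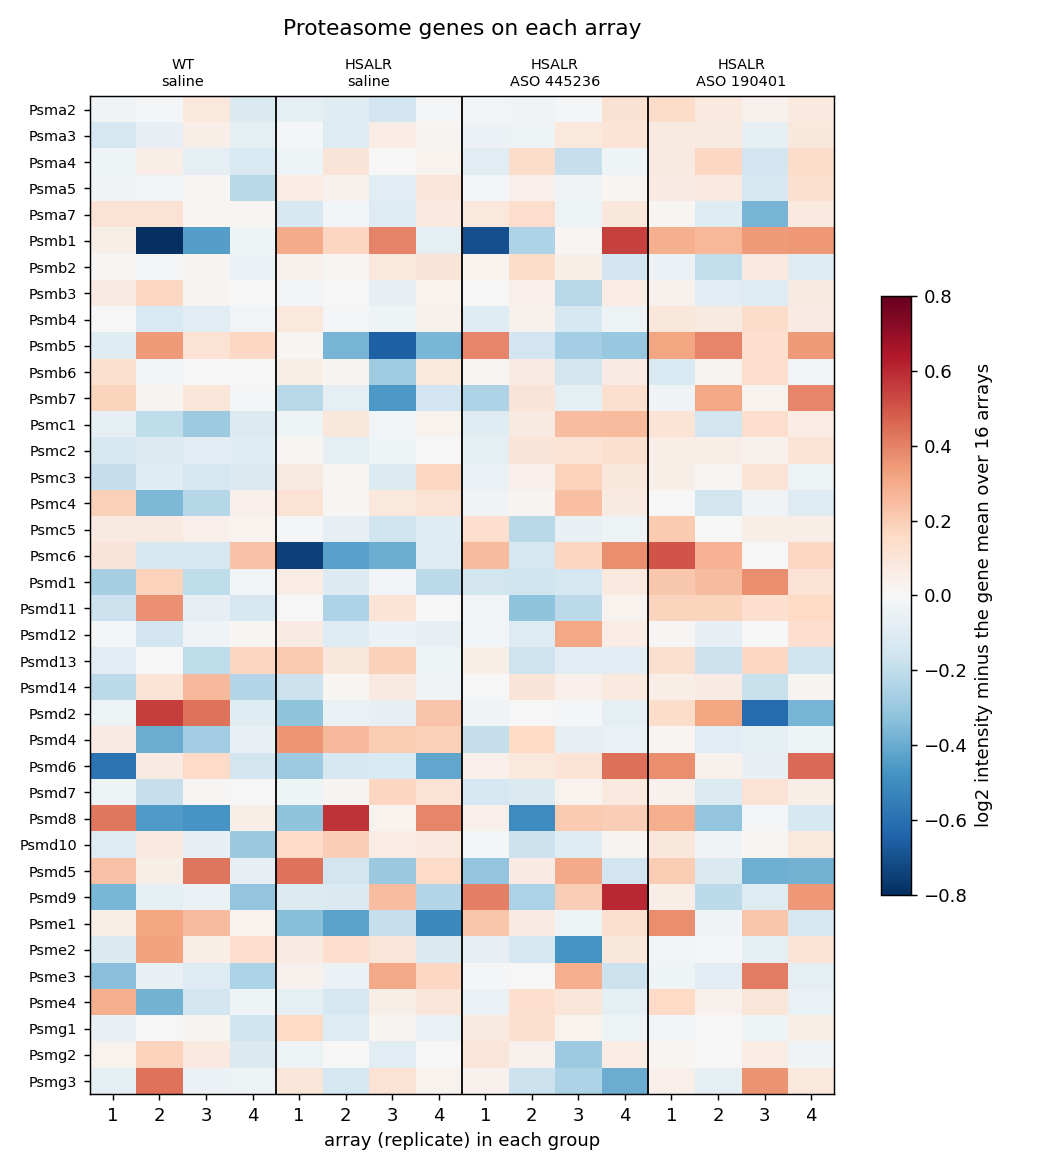
Normalised log2 intensity of each of the 38 genes (rows) on each of the 16 arrays (columns, in their 4 groups) after subtracting the gene's mean over the arrays, shown as colour. Psmc6 and Psme1 are low in HSALR saline and Psmd4 is high there. Psmb5 is low on HSALR saline arrays 2, 3 and 4 but not on array 1 (0.016), and it is also below 0 on ASO 445236 arrays 2, 3 and 4. Psmb1 on WT array 2 (-1.21) lies beyond the end of the colour scale.

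**Figure D5:**
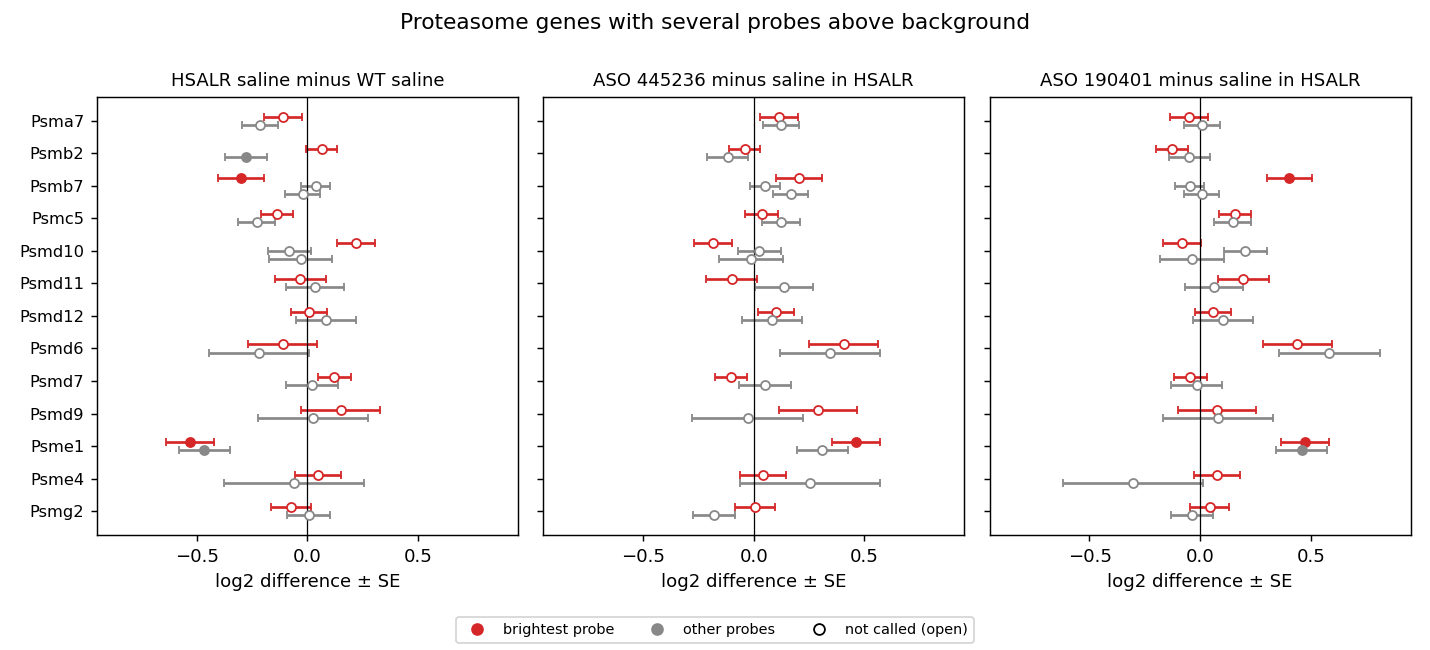
Difference in log2 intensity with its standard error (x axis) of each probe of the 13 proteasome genes with several probes above background (y axis), from a fit over all 12364 probes, in 3 comparisons that share the HSALR saline arrays. Red is the brightest probe and grey the others, filled where the adjusted p is under 0.05. Both Psme1 probes lie on the same side of 0 in every panel, whereas the brightest Psmb7 probe stands apart from its other probes.

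Other parts of the ubiquitin-proteasome system were described from lists of named genes. Their counts stand beside 27.2% of all genes called in HSALR saline against WT, 13.6% under ASO 445236 and 15.8% under ASO 190401 against saline. Against WT, the shares of all genes were 11.3% under ASO 445236 and 10.4% under ASO 190401. Among 7 measured partners of the proteasome, Pomp, the maturation factor that is degraded as the core is completed, was higher in HSALR saline than in WT (0.37, adjusted p = 2.55e-05) and lower under ASO 190401 than under saline (-0.18, adjusted p = 0.0204), with -0.13 under ASO 445236 (adjusted p = 0.0991). Pomp remained above WT under both oligonucleotides (0.24 and 0.19, adjusted p = 0.00509 and 0.0204). Ecpas, which tethers core and cap, was higher under ASO 190401 than under saline (0.23, adjusted p = 0.0438), and Zfand2a, an arsenite-inducible partner of the cap, was higher under ASO 445236 than in WT (0.44, adjusted p = 0.00861).

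Of 7 measured regulators of proteasome gene expression, 2 were higher in HSALR saline than in WT: Nfe2l1 (0.34, adjusted p = 0.0030) and Foxo1 (0.59, adjusted p = 0.0374), a driver of atrophy genes. Foxo1 was higher still under ASO 190401 than under saline (0.71, adjusted p = 0.0243), while Nfe2l1 differed by -0.20 (adjusted p = 0.0856). Under ASO 445236 none of the 7 was called, and Nfe2l1 differed by -0.19 (adjusted p = 0.111) and Nfe2l2 by -0.26 (adjusted p = 0.406). Against WT, Foxo1 was higher under ASO 445236 (0.64, adjusted p = 0.0482) and ASO 190401 (1.297, adjusted p = 0.000374).

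Enzymes and shuttles that act upstream of the proteasome were called in both directions, as were 27.2% of all genes in HSALR saline against WT (14.1% higher and 13.1% lower). Of 17 measured muscle ubiquitin ligases and conjugating enzymes, 3 were higher and 3 lower in HSALR saline than in WT, with the largest differences for Ube4b (0.74), Fbxo31 (0.56), Ube2b (-0.48) and Ube2n (-0.47). Under ASO 445236 2 were higher and 2 lower than under saline (Ube4b by -0.81, Fbxo31 by -0.74, Ube2n by 0.47 and Ube2b by 0.35), and under ASO 190401 3 were higher and 1 lower (Ube4b by -0.71, Fbxo30 by 0.63, Ube2b by 0.45 and Ube2n by 0.30). None of the 17 was called in either comparison of a treated group with WT, against 11.3% of all genes under ASO 445236 and 10.4% under ASO 190401. The atrophy ligases Trim63 (MuRF1) and Fbxo32 (atrogin-1) were not called in HSALR saline against WT (0.043 and 0.26) or under either oligonucleotide against saline. Of 10 measured shuttles and segregase factors, Ubqln4 (0.56), Nploc4 (0.49) and Vcp (0.30) were higher and Ubqln1 (-0.47) and Ubxn6 (-0.29) lower in HSALR saline than in WT. Ubqln1 was higher under ASO 445236 (0.29) and ASO 190401 (0.42) than under saline, and Ubqln4 and Ubxn1 were lower under ASO 190401 (-0.41 and -0.26).

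Other lists gave a sense of scale, beside 27.2% of all genes called in HSALR saline against WT, 13.6% under ASO 445236 and 15.8% under ASO 190401 against saline. Of 11 measured translation genes, 2 were higher and 2 lower in HSALR saline than in WT (Eif3h by -1.19, Eif3c by -0.45, Eif3a by 0.42 and Eef1a2 by 0.24), 0 were called under ASO 445236 and 1 was higher under ASO 190401 (Eif4a2 by 0.36). Of 8 measured heat shock chaperones, Bag3 was higher (0.24) and Hsp90aa1 (-0.54) and Hsph1 (-0.30) lower in HSALR saline than in WT. Under ASO 445236 Bag3 was lower than under saline (-0.31), and under ASO 190401 Hsp90aa1 (0.62) and Hsph1 (0.37) were higher. Neither measured gene of the ubiquitin and E1 list, Fau and Uba3, was called in HSALR saline against WT (0.073 and -0.34, adjusted p = 0.526 and 0.14), under ASO 445236 (-0.093 and 0.14) or under ASO 190401 (-0.18 and 0.32).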

How the data were processed

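Per the labels' protocols, 100 ng of total RNA from each quadriceps sample went through a single round of amplification to biotin-labelled cRNA with an Illumina kit. The authors deposited a table of intensity values per probe and array that was not normalised, per the file headers, together with a detection p-value for each. The scanner software is not stated there. Between 6907 and 7499 intensities per array were below 0, so background had been subtracted, and 60 cells that were not numbers were treated as missing. A second deposited table held the authors' processed intensity values, which were linear, with array medians of 26.4 to 26.5. The tool affy is named in the submitters' processing notes, with no role.

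From the intensities, background was corrected by normexp with parameters taken from the detection p-values (offset 16), followed by quantile normalisation and log2, in limma 3.58.1 under R 4.3.3. Of 25697 probes, 23978 carried 1 gene symbol in the platform annotation, 0 carried several and 684 of the probes that passed carried none. The filter (detection p under 0.05 on at least 4 arrays) kept 12364 probes, and the brightest probe per gene gave 8725 genes. A model with a mean per group over all 16 arrays (12 residual degrees of freedom) was fitted with an intensity trend in eBayes, and two-sided p-values were adjusted over all genes for each of the 6 comparisons. The procedure was tested on simulated data. Precision is limited by the 4 arrays per group.

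The members and gene lists were chosen with earlier results of these data known, so no test of a list was made. The proteasome genes are described by counts and medians beside all genes. The context lists are described by counts beside the share of all genes called, and the interferon genes also by medians. Genes were named by subcomplex: in each comparison the called members or, with none, the 2 with the smallest p, and always Psmb5, Psmb6, Psmb7, the Psme and the Psmg genes. Values for each array were given for members called in at least 2 comparisons, and other members and context genes by the rule of the largest differences (at most 4 called per list, otherwise the 2 with the smallest p). Psmd6, Psmd10, Psmc2, Psmc3, Psmb2, Psma2, Psmd9, Psmd14 and the array values of Psmb1, Psmc1 and Psmd1 were added after their values were seen. Promoter sequences and gene names were from RefSeq, GRCm38.p6, and all 40 symbols matched. Alternatives covered the background correction, the normalisation, the filter, the trend, the choice of probe, the chip position, the authors' values, the arrays fitted and each array left out.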

Additional observations from a re-analysis of the deposited data

Results flagged for a closer look

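In 7 of the 152 combinations of a proteasome gene and a group, a single array stood apart from the other three of its group by more than Dixon's 95% limit for 4 values. Chance alone flags about 1 in 20 such groups, which is a similar share. On the log2 scale, Psma2 read 13.299 on ASO 445236 array 4 against 13.146 to 13.162 on the others. Psma3 read 13.373 on ASO 190401 array 3 against 13.522 to 13.541. Psmb6, the gene with the smallest span of group means, read 12.18 on HSALR saline array 3 against 12.486 to 12.548. Psmc2 read 13.136 on ASO 445236 array 1 against 13.32 to 13.348. Psmd1 read 9.1789 on ASO 445236 array 4 against 8.9435 to 8.9601. Psme3 read 10.37 on ASO 190401 array 3 against 9.8664 to 9.9218. Psmg3 read 8.4718 on WT array 2 against 7.9648 to 7.9965.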

How the results depend on the processing

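Across 27 alternatives no called difference changed sign, and 6 of the 14 calls were lost under none of them. These were Psme1 in its 3 comparisons, Psmd4 in HSALR saline against WT, and Psmb5 and Psmc6 under ASO 190401. No alternative took the chip itself into account. Of these 6 calls only that of Psme1 under ASO 445236 lies within a chip, and in the others chip and group cannot be told apart. Scaling the arrays to a common median gave 5 calls in HSALR saline against WT. It gave 8 called genes (all higher) and a median of 0.187 under ASO 445236, and 12 and 0.221 under ASO 190401, against saline. Against WT it gave 13 and 0.238, and 21 and 0.294. Over all genes it turned 595 higher and 589 lower calls into 1530 and 257 (ASO 445236 against saline), 705 and 671 into 1943 and 296 (ASO 190401 against saline), 549 and 441 into 1455 and 164, and 444 and 461 into 1808 and 282 (the same against WT). Scaling to the median of the genes tested, chosen after seeing the data, gave 12 calls (10 higher) and a median of 0.0885 in HSALR saline against WT, a median of 0.00025 under ASO 190401 against saline, 2 calls and 0.0922 for ASO 445236 and 4 calls for ASO 190401 against WT. For ASO 445236 against saline, no detection filter gave 1 call. For ASO 445236 against WT, no filter, no intensity trend and fitting only the 2 groups gave 0 calls, and detection on all 16 arrays, the mean of a gene's probes and a chip position covariate gave 2. For ASO 190401 against WT the same filter gave 2 and chip position 1. The causes were not tested. Leaving out 1 array gave 3 to 6 calls and a median of 0.0186 to 0.0587 in HSALR saline against WT, 1 to 4 and -0.0101 to 0.0236 under ASO 445236, 3 to 7 and 0.0181 to 0.0596 under ASO 190401, 0 to 3 and 0.0073 to 0.0465 for ASO 445236 against WT, 0 to 2 and 0.0738 to 0.115 for ASO 190401 against WT, and 0 to 1 and -0.0492 to -0.00034 between the oligonucleotides. The counts moved over 1.5-fold without ASO 445236 array 1 or 4 or saline array 1 or 2 (to 1, ASO 445236 against saline), without ASO 190401 array 4 (to 3, ASO 190401 against saline), and without ASO 445236 array 1 (to 3), ASO 445236 array 3 or 4 or WT array 2, 3 or 4 (to 0, ASO 445236 against WT). No paired analysis was possible because the labels give no replicate numbers shared between groups.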
